A study of Mus musculus with 8 samples.

Results

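The 8 genes described here, Srebf1, Srebf2, Scap, Insig1, Insig2, Hmgcs1, Abca1 and Mylip, were chosen by name for their roles in sterol regulation. They are 8 of the 9779 genes with at least 1 N6-methyladenosine (m6A) peak in mouse embryonic fibroblasts (MEFs). Each of the 8 was called in 1 or more libraries, and their 26 peaks of 38705 in all fell into 16 merged regions of 21168. The genes were chosen with earlier results of these data known, so a call in each of them is not a finding. The m6A maps came from MeRIP-seq, in which mRNA fragments pulled down with an antibody against m6A (IP) are sequenced next to an input of unselected fragments. The cells were wild type C57BL/6 MEFs, derived from embryos on day 13.5 of gestation and used at passages 5 to 6. Control cells were left untreated and starved cells spent 2 h in nutrient-deprived medium. There were 8 samples in 4 groups of 2 replicates (control IP, control input, starved IP, starved input), and each of the 4 IP libraries had 1 peak list called against its input.

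Sterol supply in mammalian cells is held by a feedback loop. SREBP1 (Srebf1) and SREBP2 (Srebf2) are membrane-bound transcription factors of fatty acid and sterol synthesis. SCAP escorts them from the endoplasmic reticulum to the Golgi for cleavage when sterols are low, and INSIG1 and INSIG2 hold SCAP back when sterols are high. HMGCS1 makes HMG-CoA in the sterol synthesis pathway and is a target of SREBP2. Opposing products answer to oxysterols through the LXR receptors: ABCA1, which exports cholesterol, and MYLIP (also IDOL), a ubiquitin ligase that limits lipoprotein uptake. The m6A mark is laid on adenosines within the DRACH sequence (A, G or T, then A or G, then AC, then A, C or T) and is often found near the stop codon.

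The sequences under the regions on which the results turn are printed 5′ to 3′ on the transcribed strand of GRCm38.p6 (the assembly of mm10), with every complete DRACH in capitals. The first is from the Mylip 3′ UTR region called in all 4 libraries, the next from the Mylip coding region called in 3, then the Hmgcs1 and Srebf2 regions called in 3, and last the stop codon windows of Srebf1 and Scap. For UTR and stop codon regions 25 nt at the DRACH nearest to the centre are given, and for coding regions the central 120 nt.
Mylip 3′ UTR, chr13:45411225-45411249 (+): tttggttaagAGACAtacatggtag
Mylip coding exon 6, chr13:45408449-45408568 (+): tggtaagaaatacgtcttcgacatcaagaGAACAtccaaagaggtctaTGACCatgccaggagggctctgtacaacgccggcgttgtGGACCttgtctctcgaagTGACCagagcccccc
Hmgcs1 coding exon 3, chr13:119699833-119699952 (+): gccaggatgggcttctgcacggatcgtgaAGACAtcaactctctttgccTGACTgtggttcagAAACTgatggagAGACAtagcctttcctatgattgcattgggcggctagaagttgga
Srebf2 3′ UTR, chr15:82204036-82204060 (+): gatgaaggcaAGACTgattgttctg
Srebf1 stop codon window, chr11:60199887-60199911 (-): tttcccttgaGGACCtttgtcattg
Scap stop codon window, chr9:110384780-110384804 (+): tgtgctggagAAACTGGACTgaagg

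Peak calls of the 8 genes differed between libraries more than between groups. The genes had 9 and 3 peaks in control replicates 1 and 2, and 8 and 6 peaks in starved replicates 1 and 2. The control mean was 6 ± 4.24 peaks and the starved mean 7 ± 1.41 (SD, n = 2 each), so the difference of 1 peak was smaller than the spread. Control replicate 2 held the fewest, with peaks in 2 of the genes against 6 in control replicate 1 and 5 in each starved library, although its whole list was not short. The 4 whole lists held 10103, 9871, 9757 and 8974 peaks in the same order. Sequencing depth is unknown because the files hold no reads, and a site without a call may still be methylated. A peak also needs the transcript, and fewer cells of a type cannot be told apart from less RNA per cell. Of 8 fibroblast genes 6 had peaks (42 in all), Col1a1 and Vim having none, whereas 2 of 8 genes of epithelium, endothelium, leukocytes and neurons had them (Tubb3 with 1 and Map2 with 3).

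**Figure D1:**
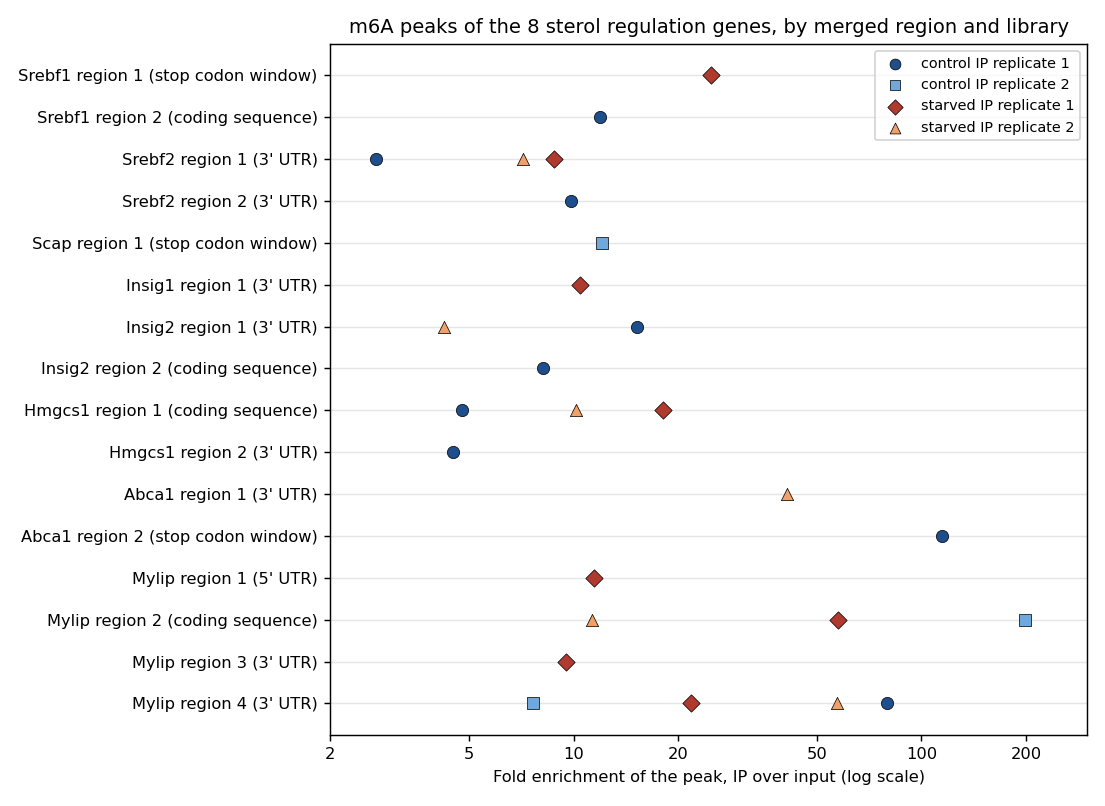
Fold enrichment of each peak over input (log axis) for the 16 merged regions of the 8 genes, with a symbol for each library in which the region was called. A single region, in the Mylip 3′ UTR, carries all 4 symbols, and 11 regions carry 1 symbol.

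The fold enrichment of a peak is the ratio of IP to input signal given by the authors, and its score is minus 10 times log10 of the p-value, which stops at about 3100. Among the 26 peaks the fold ran from 2.71 to 198 with a median of 11.4, and 10 of them were at or above the median of their own library. Over all peaks the median fold was 12.2 and 12.3 in the control libraries but 14.6 and 14.7 in the starved ones, a rise of 0.26 on the log2 scale between the whole lists. The peaks of the 8 genes had medians of 9.81, 12.1, 14.8 and 10.7. In their own lists, the median peaks of the genes stood at the percentiles 42.0, 49.5, 49.4 and 38.6, close to the middle. A score of 3100 was reached by 7 of the 26 peaks (4 of Mylip and 1 each of Hmgcs1, Abca1 and Srebf1), and 17 had a deposited false discovery rate (FDR) under 20%.

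**Figure D2:**
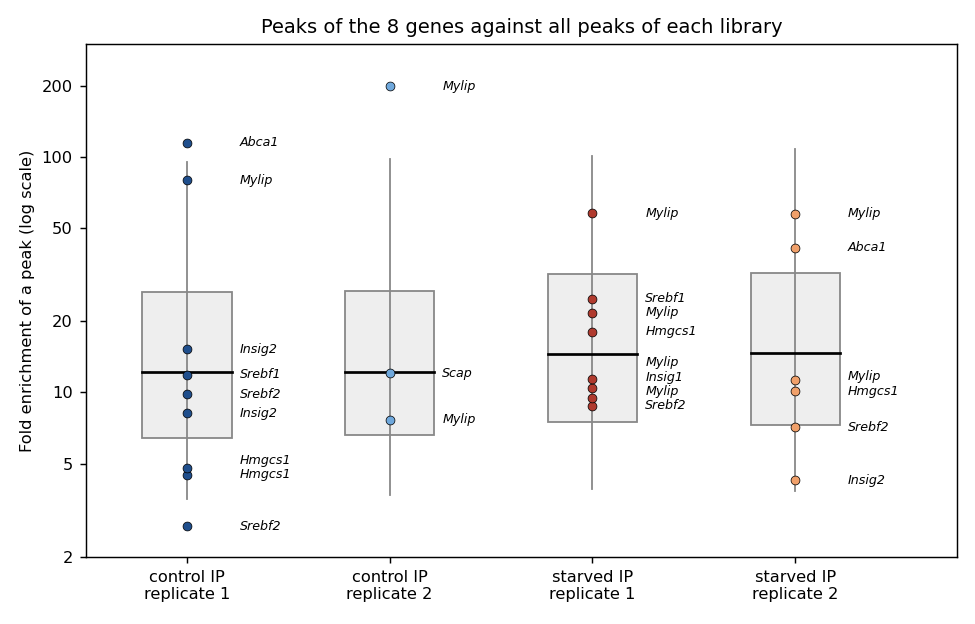
Fold enrichment (log axis) of all peaks of each IP library, drawn as the median line, a box from the 25th to the 75th percentile and a line from the 5th to the 95th, with every peak of the 8 genes as a named point. Points of Mylip and Abca1 lie highest, and those of Srebf2 and Hmgcs1 in control replicate 1 lie among the lowest.

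Few of the regions recurred across libraries. Of the 16 regions, 11 were called in 1 library only (6 in control, 5 in starved), against 56.2% of all merged regions. Further, 1 was called in 2 libraries, 3 in 3 libraries and 1 in all 4, a pattern that 10.7% of all regions had. By gene, Mylip alone had a peak in all 4 libraries, as did 29.2% of genes with any peak. Srebf2 and Hmgcs1 had peaks in 3 libraries, Srebf1, Insig2 and Abca1 in 2, and Scap and Insig1 in 1. None of the 16 regions was called in both starved and neither control library, a pattern of 3.2% of all merged regions. None was called in both control and neither starved library, a pattern of 4.15% of all regions.

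**Figure D3:**
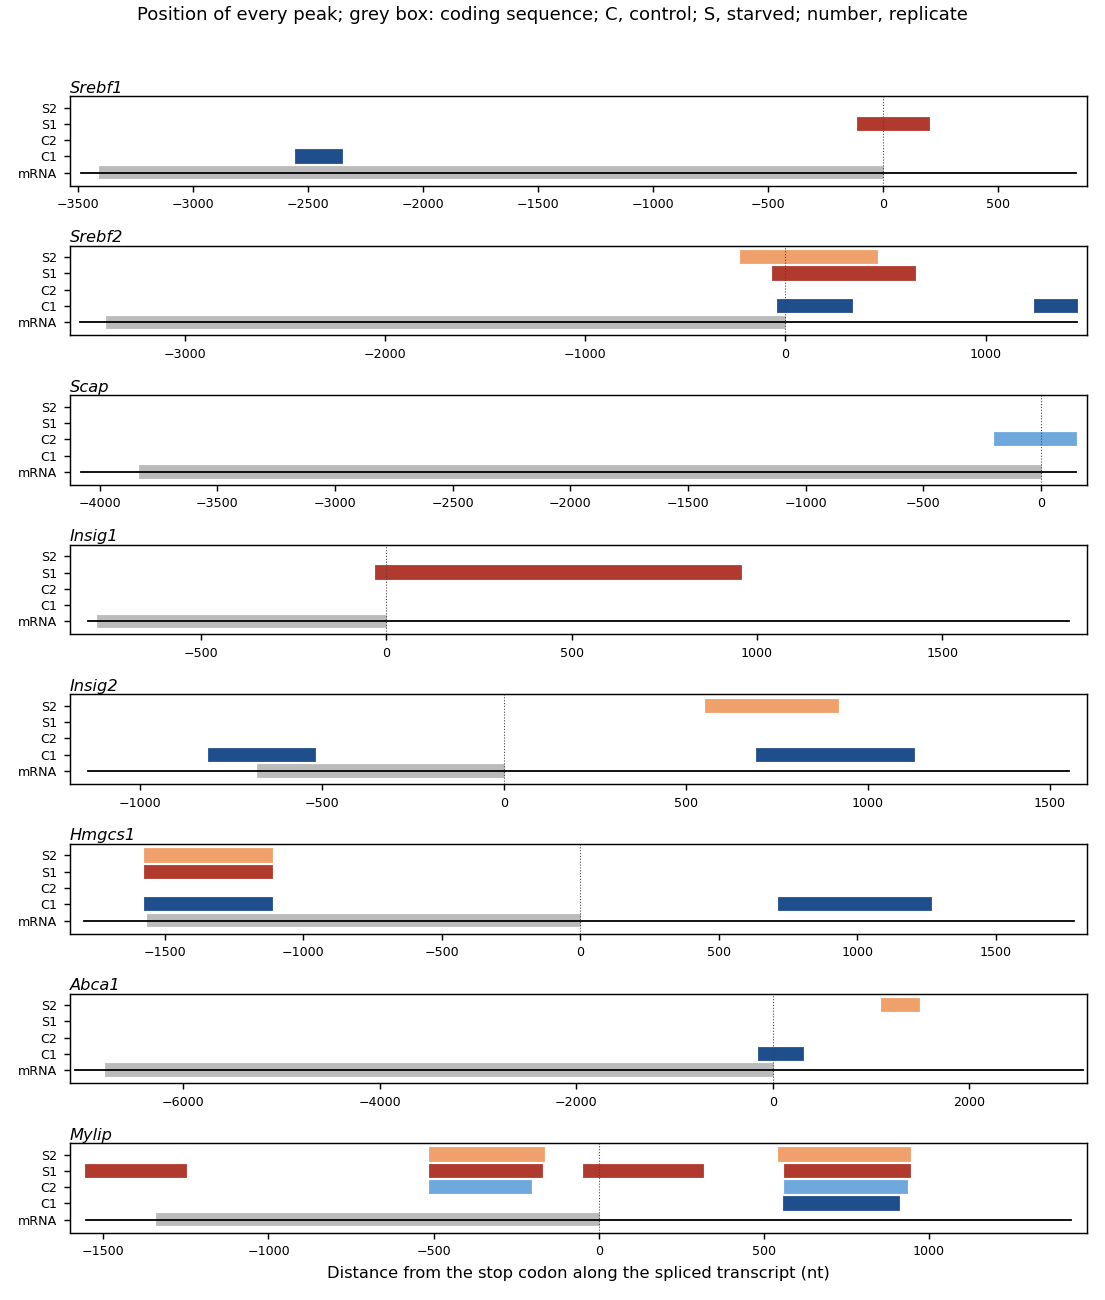
Every peak of the 8 genes along its spliced transcript (x axis, nt from the stop codon, which is at 0 and dotted), by library from control replicate 1 (C1) to starved replicate 2 (S2). The grey box is the coding sequence and the line is the transcript. Peaks of Mylip and Hmgcs1 in different libraries share edges, while those of Abca1 and Srebf1 lie apart.

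Srebf1 carried a peak in 1 control and in 1 starved library, at different places. In starved replicate 1 the peak was at chr11:60199724-60200033, over the stop codon in exon 19 of 19, with a fold of 24.9 and a score of 3100. Control replicate 1 instead had a peak in coding exon 5 (chr11:60205856-60206055), with a fold of 11.9 and a score of 1100. The other 2 libraries had no peak named for Srebf1. The gene ends next to Rai1, and peaks that the files name Rai1 overlapped a Srebf1 exon at chr11:60198163-60199197 in control replicate 1 (fold 4.87), starved replicate 1 (21.6) and starved replicate 2 (6.18). These were not counted among the 26, and to which gene their reads belong was not tested.

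Srebf2, which encodes the factor for sterol synthesis genes, had its recurrent peak across the stop codon and the start of the 3′ UTR. It was called in control replicate 1 at chr15:82203881-82204250 with a fold of 2.71 and a score of 78.2. Starved replicate 1 had it at chr15:82203853-82204566 with a fold of 8.78 and a score of 1193, and starved replicate 2 at chr15:82203697-82204374 with a fold of 7.14 and a score of 361. Both starved folds were above the single control fold, which stood at percentile 1.2 of its list, and control replicate 2 had no peak there. The log2 ratio of starved over control was 1.55, or 2.92-fold (SD of the starved values 0.21 on the log2 scale, n = 2). The stretch shared by the 3 peaks is 370 nt long, centred 148 nt after the stop codon, and holds 5 DRACH and 1 GGAC. A further Srebf2 peak, in control replicate 1 only (chr15:82205163-82205376, fold 9.81, score 1016), lay near the end of a longer GENCODE transcript, 1352 nt after the stop codon.

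Scap and the Insig genes, which encode the escort of SREBP and its anchors, were each called in 1 or 2 libraries. Scap had 1 peak, in control replicate 2, at chr9:110384605-110384949 over the stop codon in the last exon, with a fold of 12.1 and a score of 1449. This 345 nt peak was the densest of the 16 regions in motifs, with 16 DRACH and 5 GGAC. Insig1 had 1 peak, in starved replicate 1, at chr5:28076791-28077777 in the 3′ UTR, with a fold of 10.5 and a score of 1462. It was the longest peak of the 8 genes at 987 bp and held 17 DRACH and 7 GGAC.

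Insig2 had 3 peaks, 2 in control replicate 1 and 1 in starved replicate 2. In the 3′ UTR the control peak at chr1:121304779-121305212 had a fold of 15.2 and a score of 1708. The starved peak there, at chr1:121304989-121305350, had a fold of 4.24 and a score of 124, with an FDR of 53.9%. The starved value was the lower, but with 1 library in each group the difference has no replicate check. The other control peak covered the start codon in exon 2 (chr1:121319683-121319972, fold 8.18, score 299.9).

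Hmgcs1, the member of the synthesis pathway, had a peak of identical extent in 3 libraries, at chr13:119699664-119700121. This is all 458 nt of exon 3 and begins just before the start codon. Its fold was 4.77 in control replicate 1, 18.1 in starved replicate 1 and 10.1 in starved replicate 2, with scores of 988.5, 3100 and 1414. As in Srebf2, both starved folds exceeded the single control fold, and control replicate 2 had no peak. The log2 ratio was 1.51, or 2.84-fold (SD of the starved values 0.59 on the log2 scale, n = 2). Exon 3 holds 7 DRACH and no GGAC, 4 of the DRACH lying in the central 120 nt printed above. A second peak, in the 3′ UTR (chr13:119707195-119707746), was called in control replicate 1 alone with a fold of 4.49 and a score of 586.

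The order of Srebf2 and Hmgcs1 was read against other regions with the same calls. Of the 656 regions called in both starved libraries and control replicate 1 only, 42.1% had both starved folds above the control fold. The Srebf2 and Hmgcs1 ratios stood at percentiles 87.0 and 86.6 of the ratios of these regions, whose median was 0.40. Divided by the library medians, the ratios were 1.29 and 1.24, and 33.1% of the regions kept both starved values above. No test was run on 2 against 1 libraries, and this comparison was added after the values were seen.

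Abca1, the cholesterol exporter, had 2 strong peaks that did not recur. Control replicate 1 had a peak over the stop codon in exon 50 of 50 (chr4:53033639-53034083) with a fold of 115 and a score of 2161, at percentile 96.3 of its list. Starved replicate 2 had a peak further into the 3′ UTR (chr4:53032452-53032828), 1303 nt after the stop codon, with a fold of 41.1 and a score of 3100. Neither place was called in the other 3 libraries, and the 2 peaks share no base.

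Mylip, the ubiquitin ligase, had 9 of the 26 peaks and 4 of the 16 regions. Its 3′ UTR region, centred 736 nt after the stop codon, was the only region of the 8 genes called in every library. The fold was 79.4 in control replicate 1 (chr13:45411070-45411419, score 3100) and 7.65 in control replicate 2 (chr13:45411074-45411445, score 82.1). It was 21.8 in starved replicate 1 (chr13:45411073-45411453, score 2227) and 57.3 in starved replicate 2 (chr13:45411055-45411453, score 3100). The control values were the highest and the lowest of the 4, and the starved values lay between them. On the log2 scale the control mean was 4.62 ± 2.39 and the starved mean 5.14 ± 0.99 (SD, n = 2 each), a difference of 0.52 that was smaller than the spread. The two-sided exact permutation p was 1.0, where 0.333 is the smallest that 2 against 2 libraries allow.

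Neither direction was therefore called for the Mylip 3′ UTR region. Among the 2257 regions called in all 4 libraries, 22.9% had both starved folds above both control folds and 18% had both below. Divided by the library medians, these shares were 16.9% and 25.1%, and the Mylip difference was 0.26. The difference as deposited stood at percentile 66.1 of these regions, whose median was 0.10 and quartiles -0.58 and 0.78. The spread between the control replicates, in contrast, stood at percentile 99.4, against a median SD of 0.50. The direction changed with the library left out. Without control replicate 2 the log2 ratio was -1.17, without control replicate 1 it was 2.21, without starved replicate 1 it was 1.22, and without starved replicate 2 it was -0.18.

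**Figure D4:**
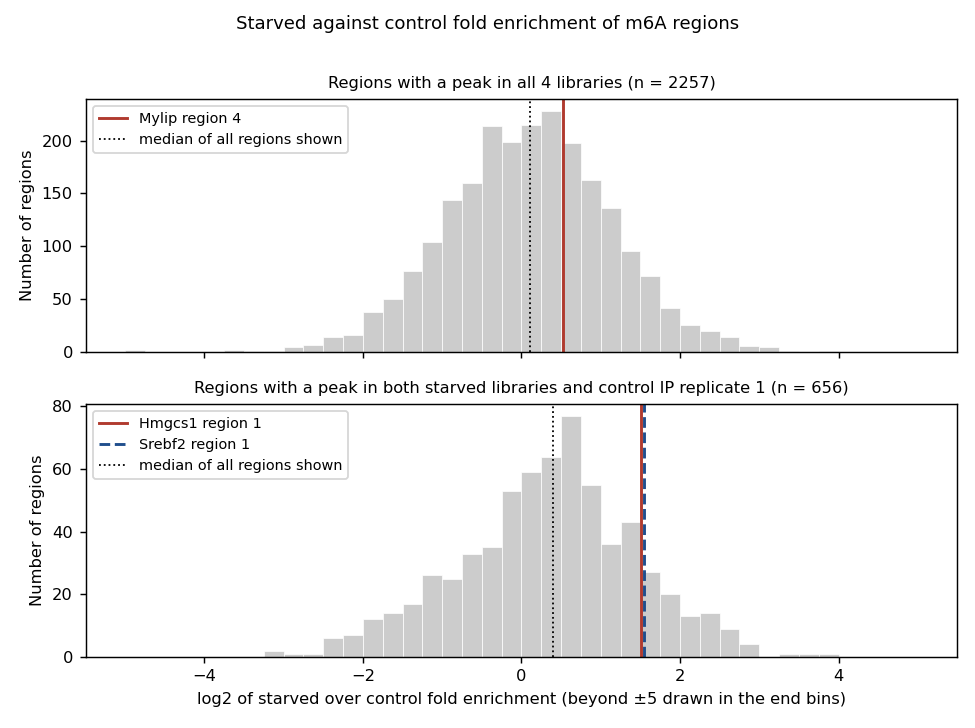
Histograms of the log2 ratio of starved over control fold enrichment (x axis) for the 2257 regions called in all 4 libraries (top) and the 656 called in both starved libraries and control replicate 1 only (bottom). The Mylip 3′ UTR region, at 0.52, lies inside the bulk, and the Hmgcs1 and Srebf2 lines, at 1.51 and 1.55, lie to the right of the median of 0.40.

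The second Mylip region, in coding exon 6, had starved folds below its control fold. It was called in control replicate 2 at chr13:45408356-45408660 with a fold of 198, the highest of the 26 peaks, and a score of 3100. Starved replicate 1 had a fold of 57.4 (chr13:45408356-45408694, score 3100) and starved replicate 2 a fold of 11.3 (chr13:45408356-45408701, score 366). Both starved folds were below the control fold, and control replicate 1 had no peak. The log2 ratio was -2.96 (SD of the starved values 1.66, n = 2), at percentile 1.1 of the 564 regions called in both starved libraries and control replicate 2 only. Both starved values were below the control value in 22.3% of those 564 regions, and in 29.4% after division by the library medians. This comparison too was chosen after the values were seen. All 3 peaks begin at the first base of exon 6, and the 305 nt they share hold 9 DRACH and 1 GGAC.

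The other Mylip regions were called in starved replicate 1 alone. The first equals exon 1, which holds the 5′ UTR and the start codon (chr13:45389742-45390043), with a fold of 11.4 and a score of 117. The third spans the end of the coding sequence and the start of the 3′ UTR (chr13:45410465-45410826), with a fold of 9.52 and a score of 554.

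In their place on transcripts, the 26 peaks lay more often in the 3′ UTR than in any other segment. By its centre, 1 peak was in the 5′ UTR, 8 in coding sequence, 14 in the 3′ UTR and 3 in the window of 100 nt to either side of the stop codon. The 3′ UTR share was 53.8%, beside 38.4% of the 34683 placed peaks on coding transcripts of all genes, and the coding share was 30.8% beside 44.1%. Repeat calls of a region count several times here, so these shares are a description. Of the 26 peaks, 13 had an edge exactly on an exon edge and 4 (15.4%) had both. Among placed peaks per library, from 47.4% to 52.1% had at least 1 such edge and from 13.1% to 14.8% had both. The 4 include the Hmgcs1 exon 3 peak in each of its 3 libraries.

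GGAC, which forms a DRACH whenever A, C or T follows it, was searched on the transcribed strand only. It lay in the central 100 bp of 7 of the 26 peaks (26.9%), beside 41.1% of all placed peaks. DRACH lay there in 23 (88.5%), beside 89.2% of all. Over whole peaks, GGAC was in 18 of 26 (69.2%), beside 81.3% of all placed peaks. DRACH was in all 26 whole peaks, beside 99.6% of all. The Mylip 3′ UTR region called in every library had no GGAC in its shared 346 nt and 4 DRACH, whereas the Srebf1 stop codon peak had 3 GGAC and 7 DRACH in 310 nt. Repeat calls of a region count several times in the motif shares of the 26 peaks too, so these shares are a description. A motif match does not say which adenosine carried the mark.

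Other genes of sterol and lipid metabolism were taken from a list of 63, grouped by role. Of these, 51 had a peak, and 15 of the 51 had one in all 4 libraries, beside 29.2% of all genes with a peak. They had 51 peaks in each control library against 60 and 56 after starvation. Of their 128 regions, 8 were called in all 4 libraries, beside 10.7% of all merged regions. Among the 8, 3 were higher in both starved libraries and 2 lower, beside 22.9% and 18% of all regions called in all 4 libraries. After division by the library medians these were 2 higher and 3 lower. Regions of both starved libraries only numbered 7 (5.47% of the 128, beside 3.2% of all merged regions) and of both control libraries only 2 (1.56%, beside 4.15%).

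Among genes of SREBP processing and of the degradation of sterol regulators, 11 of 11 had peaks. Of their 22 regions 5 were called in all 4 libraries, beside 10.7% of all merged regions. The Faf2 3′ UTR (a membrane factor in endoplasmic reticulum degradation) had control folds of 6.19 and 10.9 and starved folds of 24.6 and 21.3. The 3′ UTR of Rnf145, a ubiquitin ligase of the same membrane, had 17.1 and 16.4 against 45.7 and 23.6. In both genes every starved value was above every control value, under each of the 3 scalings too. Such genes were named because their groups did not overlap. That choice fixed their exact permutation p at 0.333, the smallest possible, so the p adds no support. Erlin2, which acts with INSIG in reductase degradation, went the other way, with 17.3 and 18.6 in control against 6.43 and 7.5 in starved libraries, likewise under each scaling. Rnf145 also had a region in both control libraries only (chr11:44551644-44551911), with folds of 8.45 and 33.8. It lay in the stop codon window of the transcript listed for its peaks. It is apart from the 3′ UTR region above (chr11:44563920-44565520), and whether both lie on the same transcript was not tested.

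Among uptake and transport genes 10 of 13 had peaks. Of their 37 regions 4 were called in both starved libraries only, a pattern of 3.2% of all merged regions. An Osbp coding region (13.7 and 9.18), of an oxysterol-binding protein, was among the 4. Of the 19 sterol synthesis genes 17 had peaks. None of their 29 regions was called in all 4 libraries, beside 10.7% of all merged regions, a share at which few would be among 29. A single region of these genes was called in both starved libraries only, in Acat2 (4.57 and 4.81), named after its values were seen. Of 6 oxysterol receptor genes and targets 4 had peaks, in 8 regions, with 1 in both starved libraries only, in Rxrb (4.76 and 4.71), also named after its values were seen.

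Of 14 fatty acid synthesis genes 9 had peaks, in 32 regions. Elovl6, a fatty acid elongase, had a coding region with control folds of 14.9 and 9.16 and starved folds of 8.25 and 4.26, lower under each scaling as well. A second Elovl6 region was called in both control libraries only (45.6 and 39.9), and a Lpin1 3′ UTR region in both starved libraries only (5.13 and 4.49). By distance of the 4 log2 folds, the listed regions nearest to the Mylip 3′ UTR region included those of Rnf145 (2.98) and Rnf139 (3.60). Nearest does not mean alike, since the groups of the Rnf145 region did not overlap and those of the Mylip region did. These distances run over 4 libraries, and distances between other regions were not computed, so how close the regions are was not tested. The SD between replicates of a median region, 0.50 in control and 0.60 in starved libraries, is a different measure.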

How the data were processed

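MeRIP-seq peaks of 4 IP libraries (2 control, 2 starved) were analysed, and groups followed the sample titles. Per the methods and the labels, the authors aligned reads to mm10 with HISAT2 2.0.4 after adapter trimming and ran MACS2 on each IP library with its own input as background. The column names of the lists are those of an earlier MACS series, so the caller version is uncertain. The deposited fold enrichment is a ratio of IP to input, the deposited score is minus 10 times log10 of the p-value, and the authors give the FDR as a percent. The authors' table of differential sites, which holds fold changes, p-values and directions, was not used, and the number of unmapped columns was 0.

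Overlapping peaks (1 bp) of the 4 lists were merged into regions, with the highest fold of a library kept. Log2 folds went into a two-sided exact permutation test over libraries (2 against 2, smallest p 0.333). Groups that did not overlap were counted and set beside all regions. Peak centres were placed on RefSeq GRCm38.p6 or GENCODE M21 transcripts (35018 of 38705 peaks, and all 26 of the 8 genes), with a stop codon window of 100 nt either side, and motifs were counted on spliced sequence in 100 bp at the centre. Sequences are from the reference genome.

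The genes and lists were chosen with earlier results of these data known. Named genes were all 8 genes and, from the list of 63, up to 3 per direction with the largest log2 ratio among regions in all 4 libraries that did not overlap, up to 3 each with a region of 1 group only by mean fold, and the 3 regions nearest to the Mylip 3′ UTR region. One gene that this rule names is not reported here. Alternatives changed the scaling between libraries, overlap, thresholds, list length, gene assignment, motif window, libraries included and replicate pairing. The steps were tested on simulated data (3000 regions), and 10 of 10 known quantities were recovered. Analyses ran in Python 3.11.15 (scipy 1.17.1, pandas 2.3.3, numpy 2.4.6; figures with matplotlib 3.10.9). The replicates are described as biological, and whether they came from separate embryos is not given in the sources used here, so p-values cover the spread between these samples only.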

Additional observations from a re-analysis of the deposited data

How the results depend on the processing

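The counts of 0 higher and 0 lower rest on the single Mylip 3′ UTR region in all 4 libraries, whose groups also overlapped under the 3 scalings between libraries, the mean of several peaks and an overlap of 50% of the shorter peak. The region in all 4 libraries was lost (0) with a fold of at least 4 and a score of at least 100, and with an FDR under 20%. It was also lost with scores of 3100 or more, a limit chosen after seeing the data. Each of these left nothing to compare. There were 2 regions in all 4 libraries when a merged region counted if any of its peaks lay over an exon of the genes. In the second region not every library had its peak over such an exon. Regions of both starved libraries only rose from 0 to 1 with the fold and score limits and with equal numbers of peaks per library. Under the fold and score limits this was the Srebf2 3′ UTR region, whose single control peak was below both limits. Leaving out 1 library each, the regions called in every remaining library ranged from 1 to 3, those higher from 0 to 2, those lower from 0 to 1, those of starved libraries only from 1 to 4 and those of control libraries only from 0 to 5. Over all regions, the shares under these omissions were from 36.7% to 40.1% higher, 27.9% to 34.6% lower, 6.85% to 19.9% starved only and 7.97% to 22.4% control only, above those with 4 libraries. The starved minus control mean of peaks ranged from -2 (without control replicate 2) to 4 (without control replicate 1), and the genes with a peak in every library from 1 to 3. The Mylip 3′ UTR ratio ranged from -1.17 (without control replicate 2) to 2.21 (without control replicate 1) and was also negative, at -0.18, without starved replicate 2. GGAC was found in 13 of 26 peaks in 200 bp and in 18 over whole peaks, against 7 in 100 bp. Over all placed peaks the shares were 63.4%, 81.3% and 41.1% in the same order.

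Equal replicate numbers showed no shared deviation in fold: over 2257 regions the replicate 1 minus replicate 2 differences of control and starved libraries correlated at -0.017. This does not say whether equal numbers shared a culture or a preparation. With the replicate block, the Mylip 3′ UTR differences within numbers were -1.87 and 2.91 (mean 0.52, exact sign-flip p = 1.0, smallest possible 0.5), and the counts of regions in the same direction in both pairs were 0 higher and 0 lower. The files hold no reads, so depth, counting error and detection limits could not be computed, and the exact permutation test used cannot go below 0.333 with 2 libraries per group.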
